A study of Mus musculus with 10 samples.

Results

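The genes described here are the mouse cytochrome P450 genes of families 1 to 4, taken as every gene whose symbol is Cyp followed by a family number from 1 to 4, a subfamily letter and a gene number. The rule used symbols alone and no measured value, but the family was chosen with earlier results of these data known. It gave 72 of the 22180 genes tested, in 21 subfamilies: 3 genes of family 1, 47 of family 2, 7 of family 3 and 15 of family 4. Of 76 RefSeq symbols of this form, Cyp2c67, Cyp2j7, Cyp4a10 and Cyp4a32 had no probe set carrying their symbol alone. One of the 72, Cyp2d13, is listed by RefSeq as a transcribed pseudogene, and the other 71 are listed as protein coding. No filter on low values was used, so all 72 were tested.

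The Fed Knockout mice were Pcyt1aLoxP/LoxP;VilCreERT2, in which the villin promoter, active in the intestinal epithelium, drives a Cre recombinase that tamoxifen switches on. The Fed Control mice were Pcyt1aLoxP/LoxP without Cre. Both groups had tamoxifen for 5 days, were females of 10 to 12 weeks, ate high-fat food for 3 days, were fasted overnight and were fed again for 2 hours before 3 cm of jejunum was taken. Pcyt1a encodes the rate-limiting enzyme of phosphatidylcholine synthesis from choline, and the question put by the design of 5 knockout and 5 control arrays is which jejunal transcripts differ once it is targeted. Only the knockout mice carried Cre, so an effect of Cre itself cannot be told apart from that of Pcyt1a. All tissue layers of the piece were measured together, so fewer cells of a type and less RNA per cell cannot be told apart either.

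Cytochrome P450 enzymes are haem proteins, most of them anchored in the endoplasmic reticulum, that add an oxygen atom to their substrate with electrons from P450 oxidoreductase and, for some, cytochrome b5. Members of families 1 to 3 oxidise drugs and other foreign compounds, and several Cyp2c and Cyp2j enzymes also turn arachidonic acid into epoxides, while many members of family 4 hydroxylate the end of fatty acid chains. In the small intestine they sit mostly in the enterocytes of the villus, where they meet foreign compounds as these are absorbed. Transcription of Cyp1a genes is driven by the aryl hydrocarbon receptor, that of Cyp2b10 by the receptor CAR, that of Cyp3a11 by the receptor PXR and that of Cyp4a genes by the fatty acid receptor PPARA.

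Values are log2 of the deposited RMA intensities, so a difference of 1 is a 2-fold change. Pcyt1a itself had a log2 intensity of 7.51 ± 0.16 in Fed Knockout and 9.22 ± 0.20 in Fed Control arrays (SD, n = 5 each). Enterocyte transcripts were bright in both groups: Fabp2, which binds fatty acids in enterocytes, stood at 13.60 in Fed Knockout and 13.49 in Fed Control. The villus marker list held 0 called genes of 17, where 0.343% of all genes tested were called at an adjusted p under 0.05. In that list 13 genes had a lower mean in Fed Knockout and 2 were lower at an unadjusted p under 0.05: lactase (Lct), at 11.82 in Fed Knockout and 12.55 in Fed Control with no overlap (adjusted p = 0.0640), and the glucose transporter Slc2a2, at 12.36 in Fed Knockout and 12.74 in Fed Control. Of 12 markers of hepatocytes, the liver cells rich in P450s, 9 lay below the control median of all genes, 5.82, in both groups, among them albumin (Alb), at 5.19 in Fed Knockout and 5.39 in Fed Control arrays. The exceptions were Cps1, which enterocytes also express, at 11.65 in Fed Knockout and 11.37 in Fed Control, Ttr, at 6.84 in Fed Knockout and 6.93 in Fed Control, and Serpinc1, at 5.48 in Fed Knockout and 5.87 in Fed Control. The mean of the 12 markers ranged from -0.07 to 0.09 over the knockout arrays and from -0.08 to 0.06 over the control arrays, in log2 units about each gene's own mean. Array medians lay between 45.8 and 48.1 on the linear scale.

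Transcripts of 2 P450 genes, Cyp2c66 and Cyp2j9, fell in knockout jejunum at an adjusted p under 0.05 (limma, Benjamini-Hochberg over all genes tested), and 0 rose. These 2 are 2.78% of the 72 genes, and over all genes tested the same rule called 0.343%. At an unadjusted p under 0.05, 17 members were lower in Fed Knockout (23.6%, against 6.25% of all genes) and 2 were higher (2.78%, against 5.82% of all genes), while 53 stood at 0.05 or above. Most of the 17 belong to the Cyp2c subfamily (9 genes) and the Cyp3a subfamily (4 genes). Over all 72 members, 43 had a lower mean in Fed Knockout (59.7%, against 50.1% of all genes), and the median difference was -0.06, against -3.54e-04 over all genes. The median of the members, taken within each array, had an SD of 0.093 between arrays of a group. Paralogous P450 genes are close in sequence, and probes of one may also bind transcripts of another.

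The promoters of 5 genes follow, since these genes hold both called differences and the largest of the Cyp2b and Cyp3a subfamilies and show what stands just upstream of them. Each runs from 250 bases before to 50 bases after the transcription start, on the gene's own strand, in the RefSeq build GRCm38.p6. Capitals mark matches, on either strand, to 5 short motifs searched for: AGGTCA, a half-site of nuclear receptors, its variant AGTTCA, the HNF1 half-site GTTAAT, the aryl hydrocarbon receptor core GCGTG and the TATA box TATAAA. A match on the opposite strand is printed as the reverse complement of its motif. The intervals are chr19:39113648-39113947 on the plus strand for Cyp2c66, chr4:96591436-96591735 on the minus strand for Cyp2j9, chr7:25897408-25897707 on the plus strand for Cyp2b10, chr5:145879805-145880104 on the minus strand for Cyp3a11 and chr5:146009569-146009868 on the minus strand for Cyp3a25, which has 2 promoter entries of which the first is shown.
Cyp2c66: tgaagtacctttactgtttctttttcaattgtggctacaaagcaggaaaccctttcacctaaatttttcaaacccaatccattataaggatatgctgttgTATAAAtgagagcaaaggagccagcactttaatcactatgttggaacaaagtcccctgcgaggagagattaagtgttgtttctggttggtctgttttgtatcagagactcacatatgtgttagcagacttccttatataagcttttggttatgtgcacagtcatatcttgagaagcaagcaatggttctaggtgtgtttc
Cyp2j9: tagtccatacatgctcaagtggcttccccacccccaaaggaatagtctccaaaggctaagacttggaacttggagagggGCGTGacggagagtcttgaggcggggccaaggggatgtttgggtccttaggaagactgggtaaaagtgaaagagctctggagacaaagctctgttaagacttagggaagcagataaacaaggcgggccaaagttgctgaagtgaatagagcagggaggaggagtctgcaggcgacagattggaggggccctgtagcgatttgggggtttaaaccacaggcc
Cyp2b10: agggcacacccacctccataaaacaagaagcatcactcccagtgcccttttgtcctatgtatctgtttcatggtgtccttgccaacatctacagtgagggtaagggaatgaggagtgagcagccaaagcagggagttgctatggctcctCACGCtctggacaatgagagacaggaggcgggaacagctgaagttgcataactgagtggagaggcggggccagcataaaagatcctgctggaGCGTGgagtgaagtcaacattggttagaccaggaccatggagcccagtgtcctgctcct
Cyp3a11: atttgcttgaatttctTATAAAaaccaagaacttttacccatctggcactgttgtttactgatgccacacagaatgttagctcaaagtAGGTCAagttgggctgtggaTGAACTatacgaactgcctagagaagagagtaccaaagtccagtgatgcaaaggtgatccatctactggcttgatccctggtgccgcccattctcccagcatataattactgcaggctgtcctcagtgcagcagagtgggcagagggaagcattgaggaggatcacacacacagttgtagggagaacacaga
Cyp3a25: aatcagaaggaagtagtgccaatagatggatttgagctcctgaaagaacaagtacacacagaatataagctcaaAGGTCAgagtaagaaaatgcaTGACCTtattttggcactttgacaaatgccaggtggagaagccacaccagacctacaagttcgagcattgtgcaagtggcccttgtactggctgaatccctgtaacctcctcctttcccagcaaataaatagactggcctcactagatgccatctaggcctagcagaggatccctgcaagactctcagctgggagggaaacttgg

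Among the 5 stretches, AGGTCA was found in those of Cyp3a11 and Cyp3a25, where the Cyp3a25 stretch held it on both strands. GCGTG was found in those of Cyp2j9 and Cyp2b10, and TATAAA in those of Cyp2c66 and Cyp3a11. The first base of TATAAA lay at -150 from the transcription start in Cyp2c66 and at -234 in Cyp3a11. Whether either match serves as a TATA box was not tested. Promoters were available for 60 of the 72 members and for 27025 genes in all. AGGTCA stood in 19 of the 60 (31.7%), against 16.04% of all promoters, and TATAAA in 24 of the 60 (40%), against 14.2% of all. GCGTG stood in 13 (21.7%, against 32.5% of all), AGTTCA in 7 (11.7%, against 14.02%) and GTTAAT in 7 (11.7%, against 7.20%). Among the 16 genes with a promoter that were lower at an unadjusted p under 0.05, AGGTCA stood in 6, AGTTCA in 3, GTTAAT in 2, GCGTG in 4 and TATAAA in 10. These are matches of letters in a short window, and factor binding was not measured.

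Cyp2c66, an enzyme of the Cyp2c group that lies in the chromosome 19 cluster, had the largest difference of all 72 genes. Its log2 intensity was 6.01, 5.46, 5.69, 6.09 and 4.72 in Fed Knockout arrays 1 to 5 and 7.04, 6.78, 8.03, 8.68 and 8.55 in Fed Control arrays 1 to 5. Every knockout array lay below every control array, and controls 4 and 5 were the highest. The means were 5.59 ± 0.55 in Fed Knockout and 7.82 ± 0.87 in Fed Control (SD, n = 5 each). The difference of -2.22 (SE 0.38) is a level 4.67-fold lower in the knockout arrays (95% confidence interval 2.65 to 8.23), with adjusted p = 0.0296.

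Cyp2j9, an arachidonic acid hydroxylase abundant in mouse brain, was the other called gene. It measured 5.97, 6.08, 6.34, 6.20 and 5.60 in Fed Knockout arrays and 6.57, 6.68, 6.76, 6.84 and 7.03 in Fed Control arrays. The groups did not overlap, and their spread was narrower than that of Cyp2c66. Its means were 6.04 ± 0.28 in Fed Knockout and 6.78 ± 0.17 in Fed Control (SD, n = 5 each). The difference was -0.74 (SE 0.14), or 1.67-fold lower (95% confidence interval 1.36 to 2.05), with adjusted p = 0.0469. The call of both genes depended on which arrays were entered: 5 members were called without knockout 1 (Cyp2b10, Cyp2c66, Cyp2j9, Cyp3a11 and Cyp3a25), 1 without control 2 (Cyp2c66) and 0 when any one of the other 8 arrays was omitted.

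**Figure D1:**
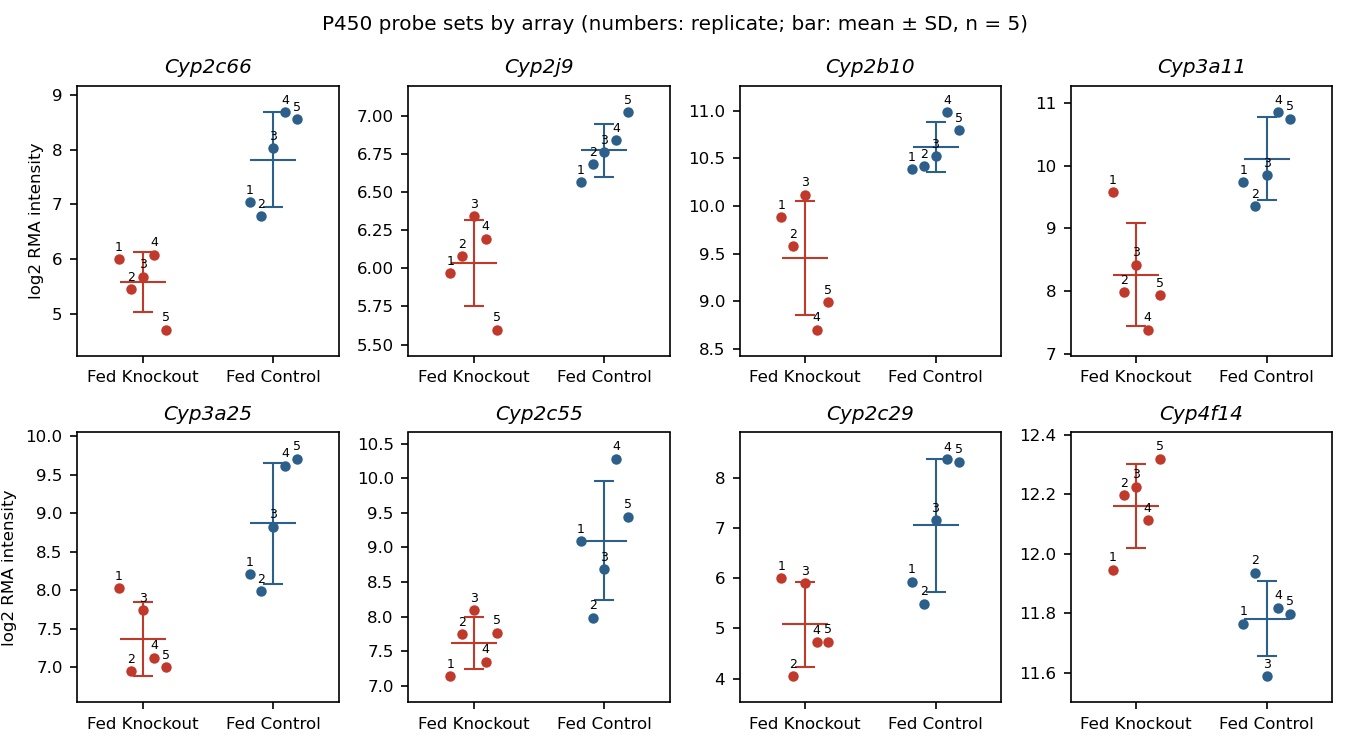
Log2 RMA intensity (vertical axes, each panel on its own scale) of 8 P450 genes in the 5 Fed Knockout arrays (red, left) and the 5 Fed Control arrays (blue, right). Points are arrays numbered by replicate, and bars are means ± SD. Every knockout array lies below every control array for Cyp2c66, Cyp2j9 and Cyp2b10 and above every control array for Cyp4f14, while knockout 1 lies among the control arrays for Cyp3a11.

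Beyond these, 4 members had an adjusted p between 0.05 and 0.1. All 4 were lower in Fed Knockout, which makes 6 of 72 at the looser threshold (8.33%, against 0.649% of all genes lower and 1.18% either way by the same rule). Cyp2b10, the main target of CAR, measured 9.89, 9.58, 10.12, 8.70 and 8.99 in Fed Knockout arrays and 10.39, 10.42, 10.52, 10.99 and 10.80 in Fed Control arrays. Every knockout array lay below every control array, with knockouts 4 and 5 the lowest. The difference was -1.17 (SE 0.24), a ratio of 2.25-fold, with adjusted p = 0.0709.

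Cyp3a11, the PXR target that in mouse stands where CYP3A4 does in human drug metabolism, measured 9.58, 7.98, 8.42, 7.38 and 7.94 in Fed Knockout arrays and 9.74, 9.35, 9.85, 10.86 and 10.75 in Fed Control arrays. Only knockout 1 reached into the control range, above control 2. The difference was -1.85 (SE 0.39), 3.60-fold, with adjusted p = 0.0709. Without knockout 1 it was -2.18, with adjusted p = 0.00976.

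Cyp3a25, its neighbour on chromosome 5, measured 8.02, 6.95, 7.74, 7.13 and 7.0 in Fed Knockout arrays and 8.20, 7.99, 8.82, 9.62 and 9.71 in Fed Control arrays. Again knockout 1 alone reached into the control range, just above control 2. The difference was -1.50 (SE 0.34), 2.83-fold, with adjusted p = 0.0881. Cyp2c55, which in mouse oxidises arachidonic acid, measured 7.14, 7.75, 8.10, 7.35 and 7.77 in Fed Knockout arrays and 9.09, 7.98, 8.69, 10.28 and 9.45 in Fed Control arrays. Here knockout 3 reached into the control range, above control 2, and knockout 1 was the lowest. The difference was -1.48 (SE 0.34), 2.78-fold, with adjusted p = 0.0943. A second, dimmer Cyp2c55 probe set stood at 5.83 in Fed Knockout and 5.62 in Fed Control, a difference of 0.21 in the other direction, and the mean of both sets gave -0.64 (adjusted p = 0.139).

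Of the 14 Cyp2c genes, 11 had a lower mean in Fed Knockout and 9 were lower at an unadjusted p under 0.05, with 1 of them called. The median difference of the subfamily was -0.43. Cyp2c38 and Cyp2c29, both arachidonic acid epoxygenases in mouse, had differences nearly as large as that of Cyp2c66 and a wider spread. Cyp2c29 measured 6.0, 4.04, 5.90, 4.72 and 4.73 in Fed Knockout arrays and 5.94, 5.49, 7.16, 8.38 and 8.33 in Fed Control arrays. Cyp2c38 measured 5.14, 2.85, 4.59, 3.15 and 3.85 in Fed Knockout arrays and 4.18, 4.81, 6.12, 7.19 and 7.36 in Fed Control arrays. For both genes knockouts 1 and 3 lay within or above the range of controls 1 and 2, and controls 4 and 5 were the highest of all arrays. The differences were -1.98 (SE 0.57) for Cyp2c29, with adjusted p = 0.174, and -2.02 (SE 0.62) for Cyp2c38, with adjusted p = 0.208. Cyp2c29 also has a second, dimmer probe set, at 4.14 in Fed Knockout and 3.92 in Fed Control, a difference of 0.22 in the other direction, and the mean of both sets gave -0.88 (adjusted p = 0.258).

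The other Cyp2c genes below an unadjusted p of 0.05 differed less. Cyp2c65, the brightest Cyp2c probe set, ranged from 9.03 to 9.81 in Fed Knockout and from 9.62 to 10.58 in Fed Control, a difference of -0.71 (SE 0.21). Cyp2c68 ranged from 8.14 to 8.84 in Fed Knockout and from 8.75 to 9.27 in Fed Control, a difference of -0.50 (SE 0.15). Cyp2c23, an arachidonic acid epoxygenase, ranged from 5.44 to 6.76 in Fed Knockout and from 6.62 to 7.45 in Fed Control, a difference of -0.75 (SE 0.25). Their adjusted p-values were 0.179, 0.200 and 0.257, and each pair of ranges overlapped. The dim Cyp2c69 differed by -0.36 (SE 0.16) and did not overlap between groups, while Cyp2c70, which in mouse makes muricholic bile acids, differed by -0.29 (SE 0.12). The remaining 5 genes, Cyp2c37, Cyp2c39, Cyp2c40, Cyp2c50 and Cyp2c54, had control means between 2.62 and 4.92 and differences between -0.08 and 0.18.

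In the Cyp3a subfamily 6 of 7 genes had a lower mean in Fed Knockout and 4 were lower at an unadjusted p under 0.05, with 0 called and a median difference of -0.78. Besides Cyp3a11 and Cyp3a25 these were Cyp3a59 and Cyp3a44, both dim. Cyp3a59 ranged from 3.23 to 4.08 in Fed Knockout and from 4.14 to 5.20 in Fed Control, a difference of -0.90 (SE 0.22) with no overlap and adjusted p = 0.118. Cyp3a44 ranged from 4.08 to 5.47 in Fed Knockout and from 4.69 to 6.36 in Fed Control, a difference of -0.78 (SE 0.33). Cyp3a13, the brightest Cyp3a probe set, measured 12.10, 11.83, 11.90, 11.57 and 12.01 in Fed Knockout arrays and 11.66, 11.92, 11.60, 12.16 and 12.18 in Fed Control arrays. Its groups lay across the same range, and the difference was -0.02 (95% confidence interval -0.32 to 0.28). Cyp3a57 differed the other way by 0.27 (SE 0.12, adjusted p = 0.399) at a very low level, 2.45 in Fed Knockout and 2.18 in Fed Control. Another 2 probe sets assigned jointly to Cyp3a41a, Cyp3a41b, Cyp3a11 and Cyp3a44 lay outside the rule. They measured 7.87 ± 0.77 in Fed Knockout and 9.41 ± 0.60 in Fed Control, and 8.50 ± 0.81 in Fed Knockout and 10.07 ± 0.59 in Fed Control (SD, n = 5 each).

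**Figure D2:**
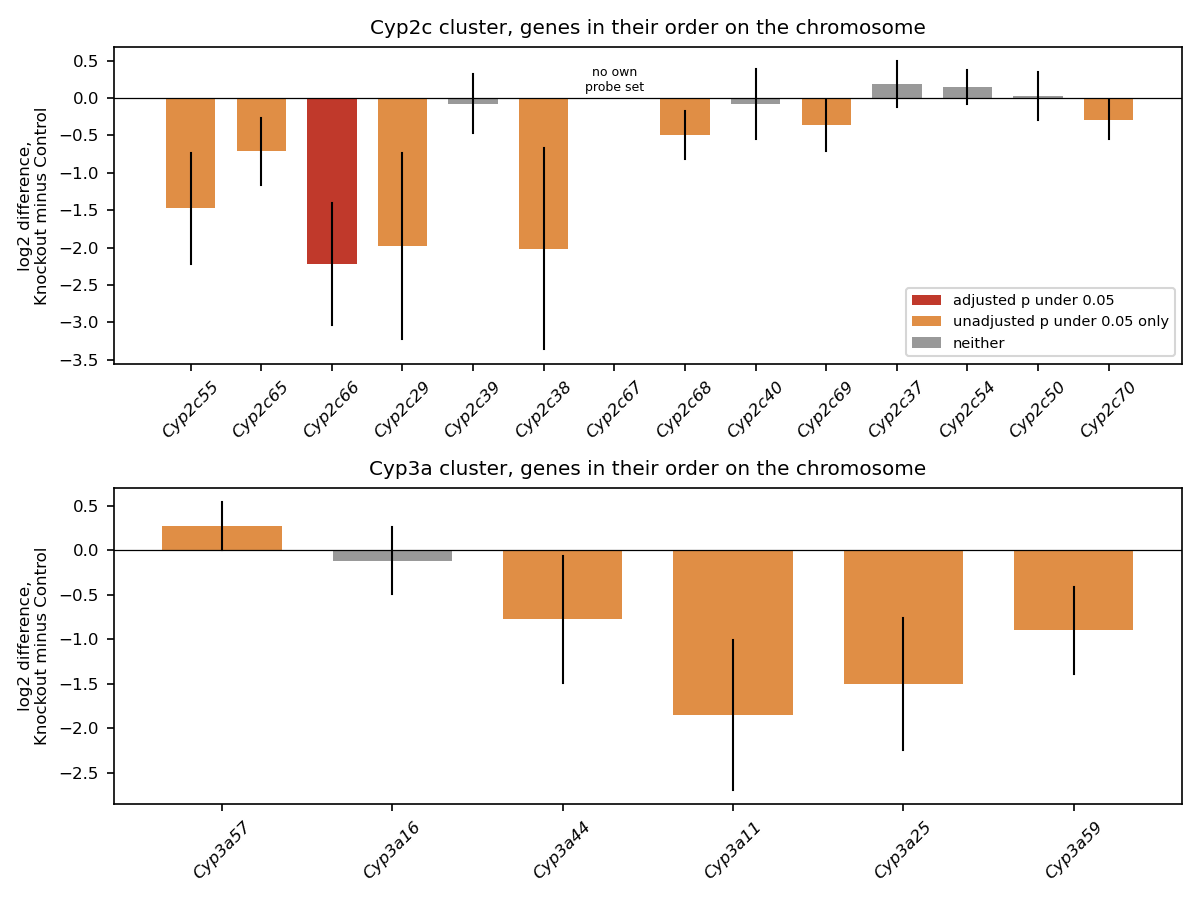
Log2 difference, Fed Knockout minus Fed Control (vertical axis), for the Cyp2c cluster (upper panel) and the Cyp3a cluster (lower panel), with genes in their order on the chromosome and not to scale in distance. Bars are differences from the fit to 5 knockout and 5 control arrays, and lines are 95% confidence intervals. Genes outside the symbol rule are not drawn. The differences of 1 or more below 0 lie between Cyp2c55 and Cyp2c38 in the upper panel and at Cyp3a11 and Cyp3a25 in the lower one.

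Along chromosome 19, 14 Cyp2c genes stand next to each other, of which 13 were measured, 10 had a lower mean in Fed Knockout and 8 were lower at an unadjusted p under 0.05. The order is Cyp2c55, Cyp2c65, Cyp2c66, Cyp2c29, Cyp2c39, Cyp2c38, Cyp2c67, Cyp2c68, Cyp2c40, Cyp2c69, Cyp2c37, Cyp2c54, Cyp2c50 and Cyp2c70, with Cyp2c23 elsewhere on the same chromosome. Among the first 6, all but Cyp2c39 were lower at that level, and Cyp2c39 stood at 4.67 in Fed Knockout and 4.74 in Fed Control. In the chromosome 5 cluster, 6 Cyp3a genes match the symbol rule, and 2 other protein-coding genes lie between Cyp3a16 and Cyp3a44. The run from Cyp3a44 through Cyp3a11 and Cyp3a25 to Cyp3a59 held the 4 lower genes, and Cyp3a57 and Cyp3a16 lay before it. Cyp3a13 lies apart from that cluster. On chromosome 7, 13 genes of the Cyp2a, Cyp2b, Cyp2f, Cyp2g, Cyp2s and Cyp2t subfamilies form a cluster, and Cyp2b10 was the 1 gene of it that was lower at an unadjusted p under 0.05.

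The other 4 Cyp2b genes had control means between 3.55 and 4.88 and differences between -0.23 and 0.14. Among the 7 Cyp2j genes Cyp2j9 alone passed an unadjusted p of 0.05. Cyp2j6, its direct neighbour and the brightest of the subfamily, stood at 10.44 ± 0.18 in Fed Knockout and 10.54 ± 0.11 in Fed Control (SD, n = 5 each), a difference of -0.10 (95% confidence interval -0.32 to 0.12). The other 5 Cyp2j genes had control means between 3.57 and 5.25 and differences between -0.31 and 0.28. Cyp2e1, which oxidises ethanol and other small molecules, measured 5.45, 5.29, 5.32, 5.21 and 5.37 in Fed Knockout arrays and 5.53, 5.59, 6.01, 5.83 and 5.64 in Fed Control arrays. The groups did not overlap, although the gene lay below the control median of all genes, and the difference was -0.39 (SE 0.10, adjusted p = 0.132).

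**Figure D3:**
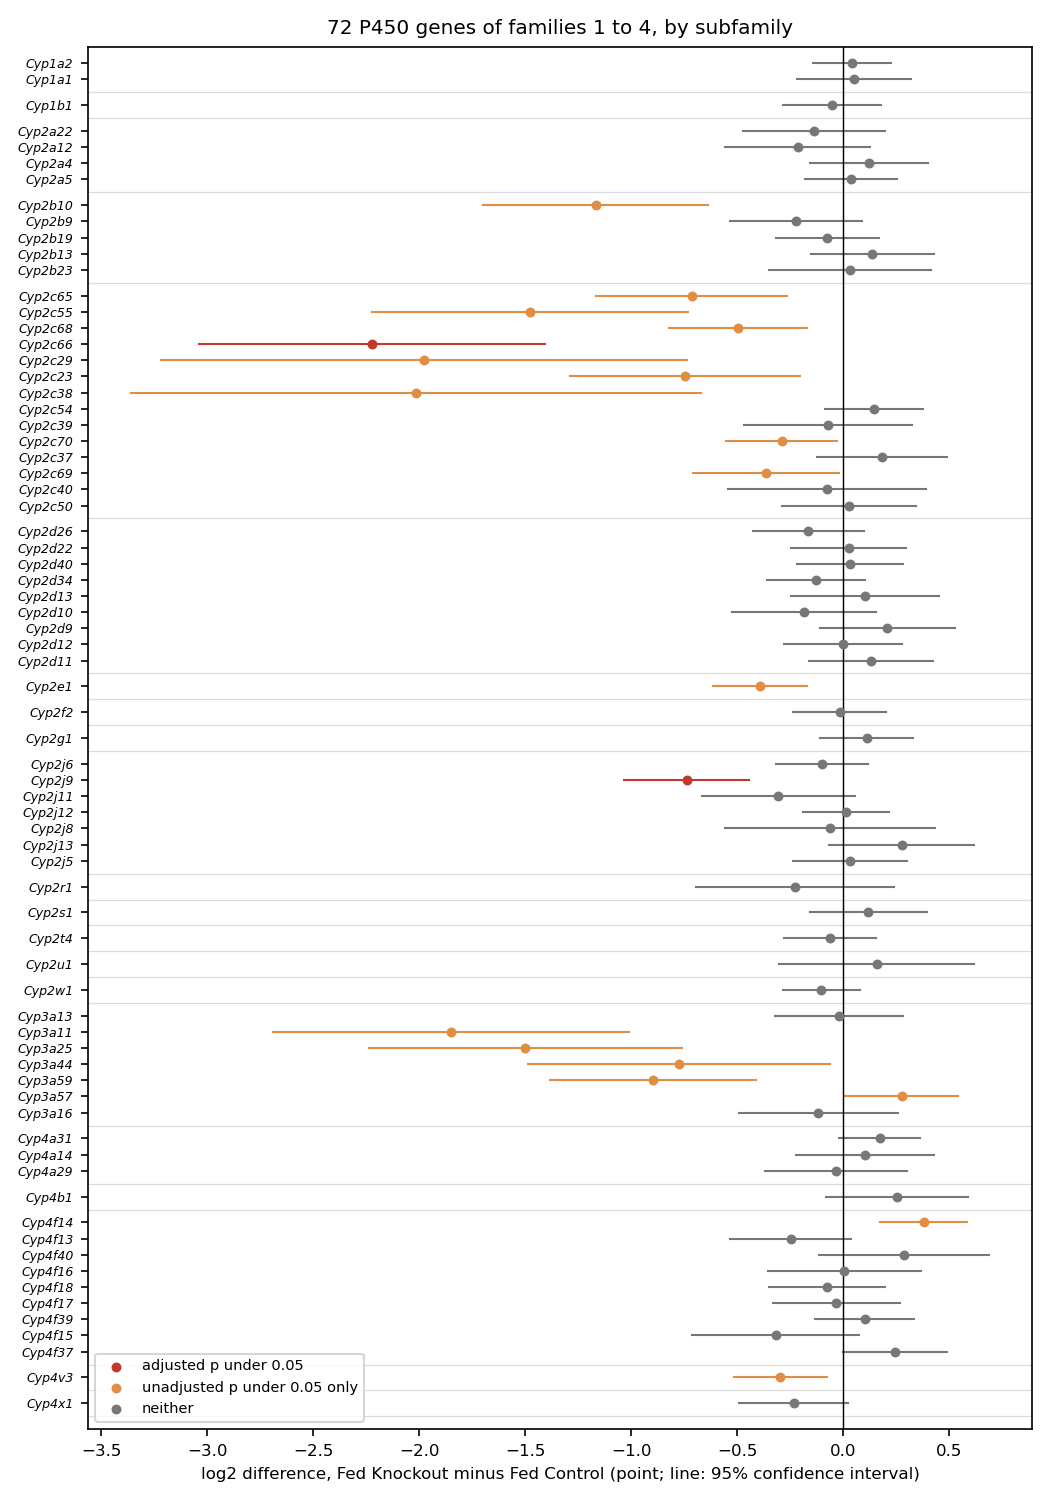
Log2 difference, Fed Knockout minus Fed Control (horizontal axis), of all 72 genes, grouped by subfamily and sorted within each by control mean. Points are differences and lines are 95% confidence intervals, from 5 knockout and 5 control arrays. The differences of 1 or more below 0 are all in the Cyp2b, Cyp2c and Cyp3a subfamilies, and Cyp2j9 is the other called gene.

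The enzymes of fatty acid hydroxylation in family 4 showed small differences in both directions, and 0 of the 15 was called, against 0.343% of all genes. Cyp4f14, which in mouse hydroxylates leukotriene B4, measured 11.95, 12.20, 12.23, 12.11 and 12.32 in Fed Knockout arrays and 11.76, 11.94, 11.59, 11.82 and 11.80 in Fed Control arrays. It was the 1 member whose knockout arrays all lay above all control arrays (1.39% of members, near the 1.20% of all genes). The difference was 0.38 (SE 0.09), 1.30-fold, with adjusted p = 0.117. Cyp4v3, the mouse counterpart of the fatty acid hydroxylase CYP4V2 and the brightest P450 probe set, ranged from 11.77 to 12.26 in Fed Knockout and from 12.14 to 12.37 in Fed Control, a difference of -0.30 (SE 0.10, adjusted p = 0.262). The other 8 Cyp4f genes differed by -0.32 to 0.29, and the brightest of them, Cyp4f13, stood at 9.11 in Fed Knockout and 9.36 in Fed Control. Cyp4x1 stood at 5.71 in Fed Knockout and 5.94 in Fed Control, and Cyp4b1 stood at 10.42 ± 0.31 in Fed Knockout and 10.16 ± 0.24 in Fed Control (SD, n = 5 each).

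The Cyp4a genes, the classic PPARA targets among the P450s, were dim and close between groups. Cyp4a31 stood at 5.69 in Fed Knockout and 5.52 in Fed Control, Cyp4a14 at 4.47 in Fed Knockout and 4.37 in Fed Control, and Cyp4a29 at 3.18 in Fed Knockout and 3.22 in Fed Control. A probe set assigned jointly to Cyp4a10 and Cyp4a31, which the rule leaves out, was brighter and more variable. It ranged from 4.72 to 7.62 in Fed Knockout and from 6.04 to 8.35 in Fed Control, a difference of -1.52 (SE 0.57, adjusted p = 0.417 over all probe sets). Its groups overlapped, and its difference is larger than any of the 3 single-symbol Cyp4a probe sets.

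The family 1 genes, targets of the aryl hydrocarbon receptor, lay below the control median of all genes and within 0.06 of equality. Cyp1a1 stood at 4.95 in Fed Knockout and 4.90 in Fed Control, and Cyp1a2 at 5.12 in Fed Knockout and 5.08 in Fed Control. Cyp1b1 stood at 4.69 in Fed Knockout and 4.74 in Fed Control. The 9 Cyp2d genes held 0 at an unadjusted p under 0.05, and the brightest, Cyp2d26, stood at 11.46 in Fed Knockout and 11.62 in Fed Control. The 4 Cyp2a genes also held 0, with differences between -0.22 and 0.12, and the brightest, Cyp2a22, stood at 6.45 in Fed Knockout and 6.59 in Fed Control. Of the subfamilies with 1 gene, Cyp2s1, which is expressed mainly outside the liver, stood at 8.90 in Fed Knockout and 8.78 in Fed Control, and Cyp2u1, a fatty acid hydroxylase, at 9.04 in Fed Knockout and 8.88 in Fed Control. Cyp2r1, a vitamin D 25-hydroxylase, stood at 5.45 in Fed Knockout and 5.68 in Fed Control. Cyp2f2, Cyp2g1, Cyp2t4 and Cyp2w1 had control means between 3.94 and 5.75 and differences between -0.10 and 0.11.

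Intensity also depends on the probes, so the order of probe sets by brightness is not an order of RNA amounts. By control mean, 9 members stood at 10 or above, 11 between 7 and 10, 19 between 5 and 7 and 33 below 5, and 46 of the 72 lay below the control median of all genes. Among the 9 brightest, 4 were lower and 1 higher at an unadjusted p under 0.05. Among the 11 between 7 and 10, 5 were lower, and among the 19 between 5 and 7, 5 were lower, with 1 called gene in each. Among the 33 dimmest, 3 were lower and 1 higher, with 0 called. Over all genes at any level, 6.25% were lower and 5.82% higher at an unadjusted p under 0.05, and 0.343% were called. Shares of all genes within these bands were not computed, so a dependence on level particular to the P450 genes was not tested. At least 2-fold lower were 7 members (9.72%, against 0.280% of all genes): Cyp2b10, Cyp2c29, Cyp2c38, Cyp2c55, Cyp2c66, Cyp3a11 and Cyp3a25, of which 6 had control means of 7 or more. With probe sets averaged within a gene the number was 5, without Cyp2c29 and Cyp2c55. The 4 brightest, Cyp4v3, Cyp3a13, Cyp4f14 and Cyp2d26, each differed by less than 0.4.

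**Figure D4:**
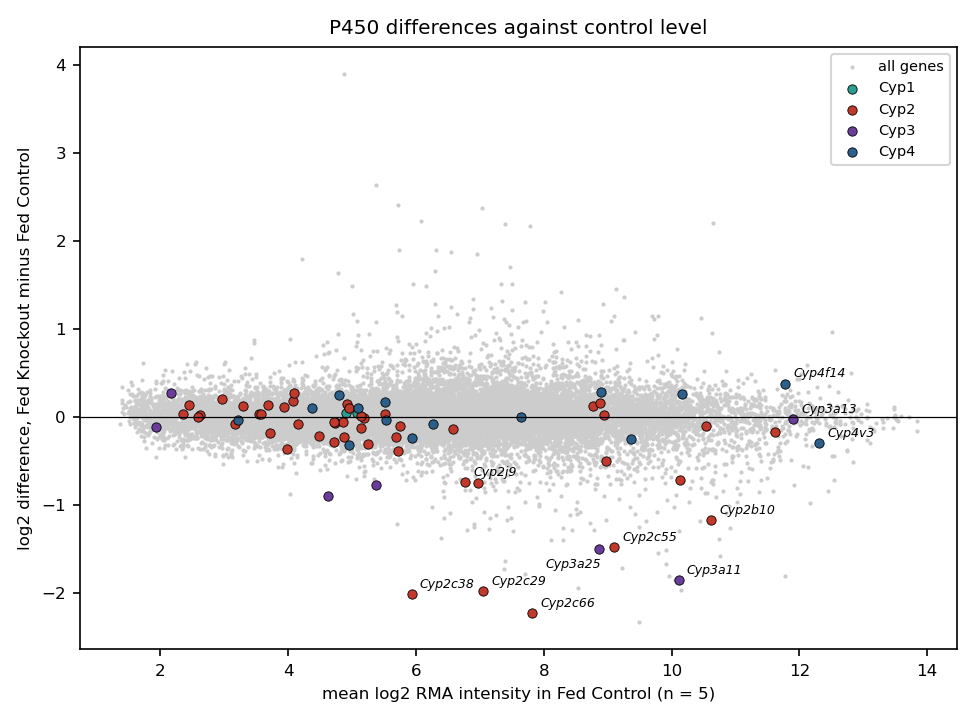
Log2 difference, Fed Knockout minus Fed Control (vertical axis), against the mean log2 RMA intensity of the 5 Fed Control arrays (horizontal axis). Grey points are all genes tested, and coloured points are the 72 P450 genes by family. The 7 genes at least 2-fold lower have control means from 5.93 to 10.62, and the brightest probe sets lie near 0.

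All knockout arrays lay below all control arrays for 6 members (8.33%, against 1.56% of all genes): Cyp2b10, Cyp2c66, Cyp2c69, Cyp2e1, Cyp2j9 and Cyp3a59. For the other lower genes the overlap came from a few arrays. Over the 17 genes lower at an unadjusted p under 0.05, knockout 1 was the highest knockout array in 10 and knockout 3 in 6. Controls 4 and 5 were the 2 highest control arrays in 13 of the 17, and control 2 was the lowest in 10. The spread of the members was wider than that of other genes, with a median SD of 0.26 in Fed Knockout and 0.23 in Fed Control, against 0.17 in Fed Knockout and 0.18 in Fed Control over all genes.

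Markers of the lower small intestine also differed between arrays. The mean of the 10 measured ileum markers, in log2 units about each gene's own mean, was -1.08 in knockout 1 and between 0.49 and 0.94 in the other 4 knockout arrays, against -0.83 to 0.10 in the control arrays. In that list 4 genes were higher and 1 lower at an unadjusted p under 0.05, with 0 called. By mean, 8 of its genes were higher in Fed Knockout and 2 lower. Its defining member Fabp6, the ileal bile acid binding protein, stood at 8.77 ± 2.67 in Fed Knockout and 4.88 ± 0.36 in Fed Control (SD, n = 5 each). The gene lower at that level was Cubn, at 11.61 in Fed Knockout and 12.45 in Fed Control (adjusted p = 0.0881). All its knockout arrays lay below all its control arrays. The mean of the 11 proximal markers was 0.32 in knockout 1 and between -0.33 and -0.16 in the other knockout arrays, against 0.02 to 0.28 in the control arrays. In the proximal list 4 of 11 genes were lower at an unadjusted p under 0.05, and 1, the hormone gene Gip, was called, at 8.45 in Fed Knockout and 9.20 in Fed Control (-0.76, adjusted p = 0.0191). Without a covariate, 76 of all genes tested were called. With the ileum mean as a covariate, 12 of all genes tested and 0 members were called. Cyp2c66 then differed by -1.82 (SE 0.40, adjusted p = 0.159), Cyp2j9 by -0.69 (SE 0.16, adjusted p = 0.204) and Cyp3a11 by -1.21 (SE 0.31, adjusted p = 0.253), against -2.22, -0.74 and -1.85 without it. The covariate also moved Cyp2c29 to -1.26, Cyp2c38 to -1.24, Cyp2c65 to -0.43, Cyp2c68 to -0.29, Cyp2c23 to -0.43 and Cyp3a44 to -0.33, while Cyp2c55 was -1.56 with it. Over all alternatives, this covariate among them, Cyp2b10 ranged from -1.33 to -0.945 and Cyp3a25 from -1.72 to -1.04. What position along the gut contributes beyond the covariate was not tested.

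**Figure D5:**
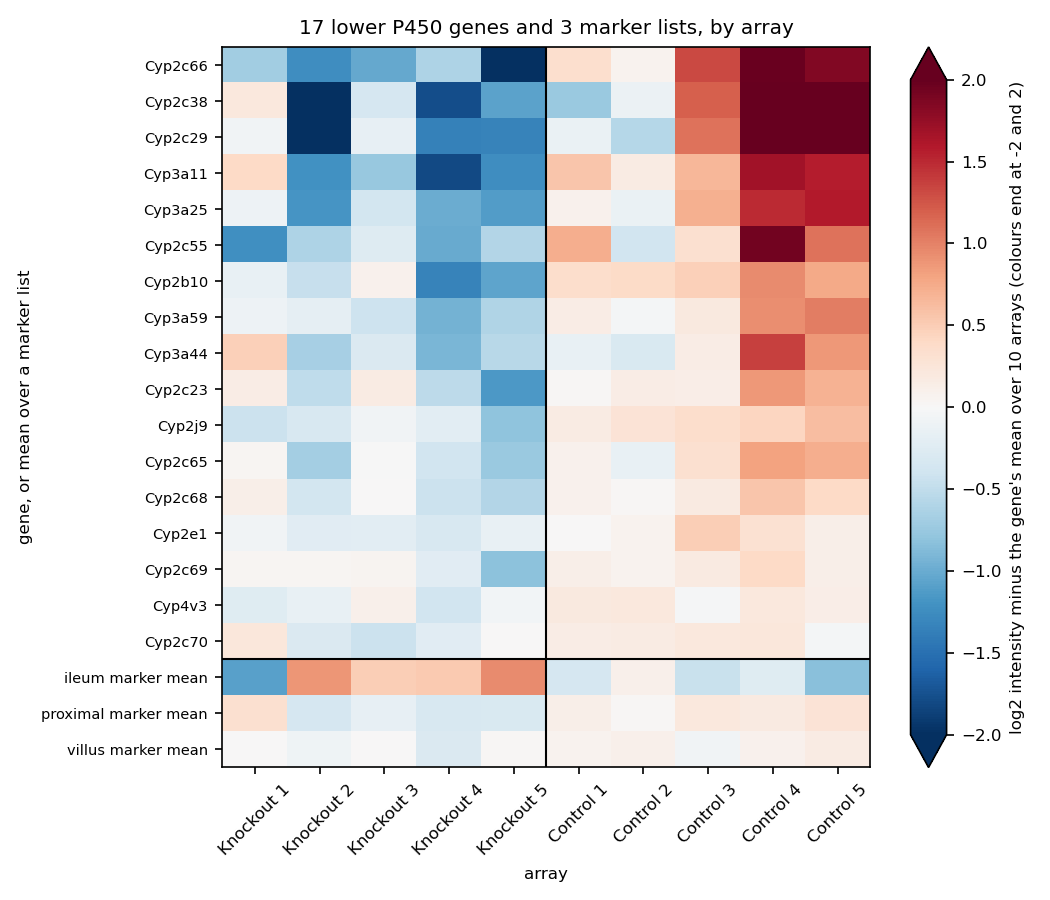
Log2 intensity minus each gene's mean over the 10 arrays (colour, ending at -2 and 2) for the 17 P450 genes lower at an unadjusted p under 0.05 (rows, from the largest difference down), with the means of 3 marker lists below the line. Columns are Fed Knockout 1 to 5 (left) and Fed Control 1 to 5 (right). Knockout 1 stands apart from the other knockout arrays in the ileum marker row, at -1.08, where control 5 is at -0.83. Controls 4 and 5 hold the highest P450 values in most rows.

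The means of the other marker lists overlapped between groups, with 0 genes called in them, against 0.343% of all genes. Of 8 goblet cell markers 5 were lower in Fed Knockout at an unadjusted p under 0.05, with a median difference of -0.26, and Fcgbp, a mucus protein, stood at 12.06 in Fed Knockout and 12.51 in Fed Control. Of 15 crypt and proliferation markers 6 were higher and 2 lower at that level, with a median of 0.46. Among the higher ones Birc5, a gene of dividing cells, stood at 6.58 in Fed Knockout and 5.73 in Fed Control. The 2 lower ones were Lgr5, at 6.27 in Fed Knockout and 6.87 in Fed Control, and Mcm2, at 7.73 in Fed Knockout and 8.15 in Fed Control. Of 7 immune cell markers 2 were lower, the T cell genes Cd3e, at 7.39 in Fed Knockout and 8.14 in Fed Control, and Cd8a, at 6.42 in Fed Knockout and 7.21 in Fed Control. By list mean, villus markers ranged from -0.29 to 0.02 over the knockout arrays and from -0.07 to 0.17 over the control arrays, and crypt and proliferation markers from -0.48 to 0.53 over the knockout arrays and from -0.73 to 0.52 over the control arrays. Of the 10 marker lists, control 5 was the lowest control in 6 (crypt, Paneth, goblet, ileum, smooth muscle and immune) and the highest in 3 (villus, proximal and pancreatic), and control 4 was the highest in 1. Paneth cell markers stood at -2.14 in control 5, against -0.06 to 0.85 in the other controls, and smooth muscle markers at 1.10 in control 4, against -0.39 to -0.07 in the other controls. Their part in the P450 differences was not tested.

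Of the genes around the P450s, 79 of 88 listed were measured and 0 were called, against 0.343% of all genes. Among the 5 measured electron donors and partners, Cyb5a, cytochrome b5, stood at 9.55 in Fed Knockout and 9.77 in Fed Control, a difference of -0.22 (SE 0.09), the 1 gene of the list at an unadjusted p under 0.05, and the haem-binding partner Pgrmc1 differed by -0.15 (SE 0.10). P450 oxidoreductase (Por) was not analysed here. In haem synthesis, where 7 genes were measured, Alas1, the first enzyme of the pathway, stood at 10.40 in Fed Knockout and 10.11 in Fed Control, and 1 gene was higher and 2 lower at that level, among them Urod, at -0.28 (SE 0.12).

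Of 17 measured receptors and partners 2 were lower at an unadjusted p under 0.05. Nr1i2, which encodes PXR, measured 9.93, 9.70, 9.64, 9.68 and 9.92 in Fed Knockout arrays and 9.88, 9.97, 10.09, 10.03 and 10.26 in Fed Control arrays. Its groups overlapped through knockouts 1 and 5 and control 1, and the difference was -0.27 (SE 0.10, adjusted p = 0.287). Pparg was the other, at -0.38 (SE 0.16). Nr1i3, which encodes CAR, stood at 9.03 in Fed Knockout and 9.34 in Fed Control, a difference of -0.31 (SE 0.15, adjusted p = 0.424). Ppara stood at 7.66 in Fed Knockout and 7.75 in Fed Control, and Ahr at 7.64 in Fed Knockout and 7.74 in Fed Control.

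Among 12 measured CAR and PXR targets outside the P450s, 3 were lower and 1 higher at an unadjusted p under 0.05, with a median difference of -0.10. Ces2a, a carboxylesterase, measured 8.99, 9.89, 10.09, 9.76 and 9.54 in Fed Knockout arrays and 10.50, 10.33, 11.09, 11.70 and 10.97 in Fed Control arrays. All knockout arrays lay below all control arrays, and the difference was -1.26 (SE 0.26, adjusted p = 0.0640). The bile acid and organic anion carrier Slco1a4 went the other way, at 4.74 in Fed Knockout and 4.26 in Fed Control. Of 4 measured targets of the aryl hydrocarbon receptor outside the P450s, 0 passed an unadjusted p of 0.05, and those with the smallest p, Ahrr and Aldh3a1, differed by -0.15 and 0.06. Of 13 measured PPARA targets 6 were lower and 0 higher, with a median of -0.40. The 2 with the smallest p were the mitochondrial carnitine carrier Slc25a20, at -0.40 (SE 0.11), and the pyruvate dehydrogenase kinase Pdk4, at 8.25 ± 1.13 in Fed Knockout and 9.80 ± 0.17 in Fed Control (SD, n = 5 each).

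Among 12 measured enzymes that make or use arachidonic acid products and epoxides, 5 were lower and 0 higher at an unadjusted p under 0.05, with a median of -0.07. Ephx2, the soluble hydrolase that opens the epoxides made by Cyp2c and Cyp2j enzymes, stood at 11.24 in Fed Knockout and 11.68 in Fed Control, a difference of -0.44 (SE 0.14, adjusted p = 0.235). Hpgd, which inactivates prostaglandins, differed by -0.37 (SE 0.14). Of 9 measured monooxygenases and oxidases outside the P450s, 1 was lower (Fmo5, -0.25) and 1 higher (Aox3, 0.23).

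The 21 P450 genes that the symbol rule leaves out, such as those of sterol, bile acid and retinoid metabolism, had a median difference of -0.04, with 0 called, 1 lower and 2 higher at an unadjusted p under 0.05. Over all genes the shares were 0.343% called, 6.25% lower and 5.82% higher. The lower gene was Cyp27a1, a sterol 27-hydroxylase, at 8.76 in Fed Knockout and 9.33 in Fed Control. The higher genes were Cyp20a1, at 7.01 in Fed Knockout and 6.60 in Fed Control, and the retinoic acid hydroxylase Cyp26b1, at 5.84 in Fed Knockout and 5.57 in Fed Control. The difference between these 21 genes and the 72 was not tested.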

How the data were processed

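RNA of 10 mouse jejunum samples, 5 Fed Knockout and 5 Fed Control by their titles, was measured on Affymetrix arrays from 400 ng of RNA, per the labels' protocols. The deposited intensities are linear. They come from RMA in Affymetrix Expression Console 1.4.1.46, per the submitters' processing notes. RMA makes the arrays alike in distribution, so a shift shared by most genes would not show. Of 41345 probe sets, 23521 carried 1 gene symbol in GEO's platform annotation, 1814 several and 16010 none, and only the first kind was used. A gene with several such probe sets was read at its brightest, by the mean of the 10 arrays, which left 22180 genes; 3 members have 2 such probe sets. Names, gene order and promoters come from RefSeq (GRCm38.p6).

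Fed Knockout was compared with Fed Control on log2 intensity in limma 3.58.1 (R 4.3.3, lmFit and eBayes, with group as sole term), with Benjamini-Hochberg over the 22180 genes and a threshold of 0.05. The test was checked on simulated data. The labels do not state that each array is a separate animal. The p-values therefore set group differences against the spread between samples, which may not be that between animals. Precision is limited by the number of arrays.

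The members and all gene lists were chosen with earlier results of these data known. Named were all members at an unadjusted p under 0.05, the member with the highest control mean in each subfamily, the 10 with the highest control means, and of each pathway list the 2 with the smallest p. Others, marker genes included, are named only where a subfamily, its regulators or a cell type list is described, after their values were seen. For a list mean, each gene's log2 intensities were centred on that gene's own mean and then averaged within an array.

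Alternatives were aligned array medians, quantile normalization, leaving out the dimmest 30% of genes, averaging probe sets within a gene, a test of all probe sets, eBayes with trend and robust, array weights, log2(value + 16), the replicate number as a block, a threshold of 0.1, the ileum list mean as a covariate, omission of each array, and omission of knockout 1 and control 5 together.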

Additional observations from a re-analysis of the deposited data

Results flagged for a closer look

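In Cyp2t4, a dim member, 1 array stood apart from the rest of its group in both groups. Fed Knockout 2 measured 4.96, against 4.52 to 4.62 in the other knockout arrays, and Fed Control 2 measured 4.94, against 4.65 to 4.71 in the other controls. A total of 72 groups of 5 arrays were examined in this way, and chance alone sets an array apart in about 1 of 20. The group means of the gene were 4.66 in Fed Knockout and 4.72 in Fed Control.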

How the results depend on the processing

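Both called genes, Cyp2c66 and Cyp2j9, were also called with aligned array medians, quantile normalization, the dimmest 30% of genes left out (which kept 43 members), the mean of probe sets, trend and robust, and log2(value + 16). Array weights called 3 members, with Cyp3a11 added (adjusted p = 0.0462). Omission of knockout 1 and control 5 together called Cyp2c66 and Cyp3a11. A test of all probe sets called 0 (adjusted p = 0.0771 for Cyp2c66 and 0.105 for Cyp2j9). With the ileum list mean as a covariate 0 were called. A threshold of 0.1 called 6, and omission of 1 array gave 0 to 5. Cyp2c66 ranged from -2.48 to -1.82 over the alternatives with adjusted p from 0.0218 to 0.159, and Cyp2j9 from -0.81 to -0.62 with 0.0364 to 0.204. The pathway genes, 0 called, came to 1 at a threshold of 0.1, to 2 without knockout 1 and control 5, and to 0 to 2 with 1 array omitted. The 76 genes called in all became 39 over all probe sets, 142 with array weights, 261 at 0.1, 12 with the ileum covariate, 186 without knockout 1 and control 5, and 11 to 268 with 1 array omitted. The median member difference stayed between -0.07 and -0.01 over single omissions.

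The replicate numbers do not pair the arrays: correlations of same-numbered deviations were 0.00782, 0.0734, 0.00211, -0.135 and 0.125. With the replicate block 0 members and 27 genes in all were called, with adjusted p = 0.0582 for Cyp2c66 and 0.0981 for Cyp2j9.

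Among named members, 5 genes not called changed sign with the ileum covariate: Cyp1b1 to 0.013, Cyp2r1 to 0.089, Cyp2s1 to -0.0042, Cyp2u1 to -0.16 and Cyp3a13 to 0.065. Cyp2f2 changed to 0.068 with array weights and 0.045 without knockout 1 and control 5. With single arrays omitted Cyp2f2 ran from -0.082 to 0.027, Cyp1b1 from -0.12 to 0.0013, Cyp2a22 from -0.21 to 0.0058 and Cyp3a13 from -0.098 to 0.057. The causes of these changes were not tested.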
